A study of Homo sapiens with 4 samples.

Results

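Thrombospondins and other matricellular proteins were followed through 10 genes: the thrombospondins THBS1, THBS2 and THBS3, then TNC, POSTN, SPARC, FN1, TGFBI, FBN1 and LUM. Every probe set assigned to 1 of these genes alone was used, which gave 31 probe sets, and the 10 genes are part of 19775 named on the arrays. The cells were U87TR-Da, made from U87MG, an established human glioblastoma line. Adding doxycycline turns on DACH1 in them, a nuclear factor that mostly represses transcription. Total RNA of 4 cultures was hybridised to 4 Affymetrix arrays, 1 per condition: DACH1 silenced or DACH1 induced, each in medium labelled serum (DMEM with 10% FBS) or labelled serum-free (Neurobasal without serum, to which N-2, B-27, EGF and bFGF had been added). The labels give 1 µg/mL of doxycycline over 72 h for all 4 samples, those with silenced DACH1 included, so they do not say how silencing was kept. No condition was repeated, and the labels name 1 derived line with no promoter or clone. The media are named by their labels, because the growth text is the same for all 4 samples and the medium of each culture was not checked here.

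Matricellular proteins are secreted into the extracellular matrix, where they bind cell surface receptors, proteases and growth factors and tune adhesion more than they bear load. Thrombospondin 1 binds the receptors CD47 and CD36 and can release TGF-beta from its latent complex. Tenascin C surrounds glioblastoma cells and vessels, and SPARC, fibronectin and TGFBI are abundant in the matrix that glioma cells of mesenchymal character lay down. Fibrillin 1 forms the microfibrils that hold latent TGF-beta, and lumican is a small proteoglycan that binds collagen fibrils.

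All values are MAS5 signals, a background-corrected brightness per probe set on a linear scale. The median signal of the arrays lay between 15.7 and 19.3. The main probe set of DACH1 went from 126.0 (silenced) to 4431 (induced) labelled serum, and from 32.5 to 875.1 labelled serum-free, the direction the labels give. Its other probe sets, 228915_at and 205472_s_at, read 24.7 or less on every array. Among glioblastoma line markers, VIM read between 6065.4 and 9277.8 and CD44 between 4213.6 and 5665.5, NES read between 19.6 and 35.8, and GFAP, SOX2 and S100B lay under the floor of 10.9 on every array. OLIG2 moved with the medium, at 58.4 and 79.9 labelled serum and 12.2 and 12.3 labelled serum-free (5.58-fold lower, limma adjusted p 0.0170). It entered the limma fit only through the arrays labelled serum, where it was high, so the filter favoured that call. Labelled serum-free it was near the floor. The floor of 10.9 is the 40th percentile of all signals, and lower signals were set to it before log2. Of 4 leukocyte markers named on the arrays, 3 had no array at the median of all signals (17.2), with sums over the list from 14.7 to 41.4. Endothelial markers summed to between 103.6 and 185.3, epithelial markers to between 19.0 and 56.9, and markers of oligodendrocytes and neurons to between 105.7 and 413.6. Between the media limma called KDR lower (72.1 and 127.8 labelled serum, 26.7 and 23.1 labelled serum-free, adjusted p 0.0282) and TEK higher (16.1 and 20.7 against 34.8 and 34.9, adjusted p 0.0414), both of the endothelial list. It called SNAP25, of the last list, higher (160.2 and 68.6 against 370.3 and 352.5, adjusted p 0.0349). The part of these markers in the results was not tested. A level in such bulk RNA cannot tell fewer expressing cells from less RNA per cell.

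THBS1, which encodes thrombospondin 1, was the most variable of the genes. Its brightest probe set, 201110_s_at, read 15.2 in silenced and 18.5 in induced cells labelled serum. It read 656.9 in silenced and 230.6 in induced cells labelled serum-free. The gene was thus close to the floor in both cultures labelled serum and well above it in both labelled serum-free, where the culture with DACH1 was the lower one. The silenced pair differed 43.2-fold between media and the induced pair 12.5-fold, folds that depend on how signals near the floor are treated: with a floor of 50 the log2 differences fell from 5.43 and 3.64 to 3.72 and 2.21. The additive limma fit, which takes 1 term for DACH1 and 1 for the medium on log2 signals, put the rise labelled serum-free at 4.54 on the log2 scale (SE 0.49, adjusted p 0.0190). That term was 2.96 with a floor of 50 and 2.19 with the mean of all probe sets, both past the threshold. In both alternatives THBS1 entered only through the arrays labelled serum-free, where it was high, so the filter favoured those calls.

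The second feature of THBS1 was its DACH1 difference in the arrays labelled serum-free, where few genes differed. With DACH1 induced, 201110_s_at was 2.85-fold lower there. The same pair read 626.0 and 177.7 on 201109_s_at, 3.52-fold lower, and 384.3 and 126.7 on 201108_s_at, 3.03-fold lower. On 201107_s_at it read 69.8 and 23.3, a log2 difference of -1.58. All 4 probe sets of THBS1 that reached the median signal on at least 2 arrays were thus at least 2-fold lower. They are different probe sets on the same arrays, so they do not replicate the cultures. Of the other 3 probe sets, 235086_at read 29.0 and 7.5, 215775_at read 14.7 and 16.3, and 239336_at was under the floor.

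Among 9 of the genes that entered this pair, THBS1 was the 1 at least 2-fold lower and 0 were higher. Over all genes compared in the pair, 2.72% were at least 2-fold lower and 1.02% higher, mostly dim ones. Of 3869 genes whose brighter array of this pair read 200 to 1000, 2 differed 2-fold (0.0517%), DACH1 itself as the higher and THBS1 as the lower one (0.0258%). In the arrays labelled serum, 5.68% of 3960 genes in this range did, and 3.54% were lower. With no upper limit, 5088 genes had a brighter array of at least 200. Of these, 2 were at least 2-fold lower (0.0393%), THBS1 and a gene brighter than that range. None of the 5088 had a lower log2 difference than THBS1, among 7294 at 100 or more 1 did, and among 9265 at 50 or more 10 did. The range of 200 to 1000 was chosen with the value of THBS1 known. With no replicate array, the difference has no test.

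In the arrays labelled serum the DACH1 difference of THBS1 could not be read in the same way, since the signals lay near the floor. It was 1.22-fold higher on 201110_s_at, while 201109_s_at read 16.9 and 15.8 and 201108_s_at read 21.9 and 13.3. The log2 DACH1 difference labelled serum-free minus that labelled serum was -1.79 for 201110_s_at. Over all genes fitted, 4.76% had such a difference of differences at -1 or lower and 5.4% at 1 or higher.

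**Figure D1:**
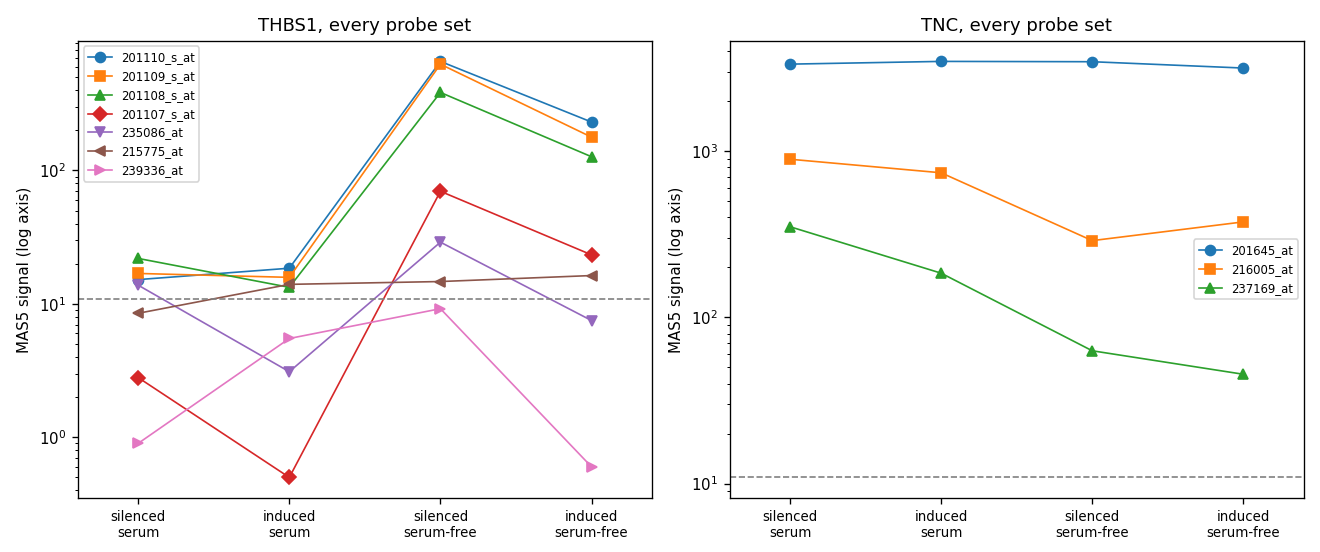
MAS5 signal (log axis) of each probe set of THBS1 (left) and TNC (right) on the 4 arrays, with lines joining the points of 1 probe set and the dashed line at the floor of 10.9. The 4 brightest THBS1 probe sets are high only labelled serum-free and lower there with DACH1 induced, while 201645_at of TNC stays between 3165.4 and 3471.0 as the other TNC probe sets fall.

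THBS2 encodes thrombospondin 2, a trimer like thrombospondin 1 that lacks its sequence for activating latent TGF-beta. It went the other way from THBS1 between the media. Its 1 probe set read 224.5 (silenced) and 197.0 (induced) labelled serum against 86.0 and 91.3 labelled serum-free. The signals of the media did not overlap, and the DACH1 states lay close together within each medium. The fall labelled serum-free was 2.37-fold (log2 -1.25, SE 0.19, limma adjusted p 0.0261), and THBS2 was the only 1 of the genes called lower at an adjusted p of 0.05.

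THBS3 encodes a thrombospondin of the pentameric subgroup. It read 76.6 (silenced) and 47.4 (induced) labelled serum against 157.8 and 196.4 labelled serum-free. Both cultures labelled serum-free were above both labelled serum, and the induced culture was the lowest labelled serum and the highest labelled serum-free. The rise between media was 2.92-fold (log2 1.55, SE 0.31, limma adjusted p 0.0373). The DACH1 difference was 1.62-fold lower labelled serum and 1.25-fold higher labelled serum-free, which gave a difference of differences of 1.01. The 3 thrombospondin genes therefore ran in 3 patterns: near the floor to high, moderately down and moderately up.

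The stretches before the starts of THBS1 and THBS2 are shown because these genes lay furthest apart between the media, and those of SPARC and TGFBI because their medium terms were the next largest above 0. Each run holds the 250 bases before a transcript start in the RefSeq table (GRCh38.p14), read 5′ to 3′ on the gene's strand. The regions are chr15:39580829-39581078 (plus strand) for THBS1, chr6:169253847-169254096 (minus) for THBS2, chr5:151686916-151687165 (minus) for SPARC and chr5:136028738-136028987 (plus) for TGFBI. Capitals mark CATTCC, the core read by TEAD factors, or its reverse complement, and in THBS2 also the reverse complement of CAGACA, a SMAD element. TGFBI held none of the letters searched.
THBS1: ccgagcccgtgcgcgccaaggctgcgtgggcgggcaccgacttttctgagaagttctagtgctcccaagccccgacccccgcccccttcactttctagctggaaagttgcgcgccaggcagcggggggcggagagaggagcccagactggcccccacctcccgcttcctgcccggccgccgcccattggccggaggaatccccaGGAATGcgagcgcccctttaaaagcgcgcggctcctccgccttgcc
THBS2: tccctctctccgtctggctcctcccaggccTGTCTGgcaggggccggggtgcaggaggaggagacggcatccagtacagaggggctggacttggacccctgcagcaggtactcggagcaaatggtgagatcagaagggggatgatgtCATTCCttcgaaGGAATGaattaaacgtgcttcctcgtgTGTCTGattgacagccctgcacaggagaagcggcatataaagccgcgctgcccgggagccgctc
SPARC: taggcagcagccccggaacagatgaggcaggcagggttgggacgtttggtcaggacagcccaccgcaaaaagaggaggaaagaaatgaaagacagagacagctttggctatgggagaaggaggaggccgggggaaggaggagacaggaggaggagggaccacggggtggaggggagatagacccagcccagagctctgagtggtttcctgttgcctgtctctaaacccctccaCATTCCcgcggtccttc
TGFBI: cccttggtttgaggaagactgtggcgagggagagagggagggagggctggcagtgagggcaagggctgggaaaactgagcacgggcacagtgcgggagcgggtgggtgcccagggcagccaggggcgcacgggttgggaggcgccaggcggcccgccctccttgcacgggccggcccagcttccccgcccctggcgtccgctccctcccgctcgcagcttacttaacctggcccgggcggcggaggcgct
CATTCC stood in 4 of the 10 stretches of these genes (9 genes were in the table, THBS3 with 2 starts), against 11.9% of 35116 stretches of the same length. It lay 46 to 41 bases before the start in THBS1 and 17 to 12 in SPARC, both of which rose. THBS2, which fell, held it at 103 to 98 and again, on the other strand, at 91 to 86 bases. The fourth was FBN1, for a start that lies inside the span of the gene. FN1, TGFBI and both starts of THBS3, which also rose, had no match. LUM, which rose as well, was not in the table and was not searched. A start of THBS3 also lies inside the span of its gene. TNC and POSTN, given no direction between the media, had no match either. A link of the letters to the medium was not tested. CAGACA was found for THBS2 and TNC (13.6% of all stretches), the AP-1 letters TGANTCA for POSTN alone (6.57%), and the SMAD palindrome GTCTAGAC (0.182%) and the SRF CArG box (1.16%) for none. Each motif was searched on both strands. A match is a string of letters and not a measured site.

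SPARC, FN1, TGFBI and FBN1, which encode abundant matrix proteins, rose labelled serum-free. SPARC, a collagen-binding glycoprotein, read 663.5 (silenced) and 830.0 (induced) labelled serum against 5008.9 and 4321.4 labelled serum-free. Its rise was 6.27-fold (log2 2.65, SE 0.22, limma adjusted p 0.0170), and its other probe set, 212667_at, went from 738.1 and 843.2 to 3578.4 and 2966.0. The media were far apart for SPARC, and the DACH1 states differed by at most 1.25-fold on either probe set.

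TGFBI encodes an adhesion protein induced by TGF-beta. Its 1 probe set read 2206.6 and 2292.4 labelled serum against 10525.8 and 9077.6 labelled serum-free, each time silenced first. The rise was 4.35-fold (log2 2.12, SE 0.19, limma adjusted p 0.0170). TGFBI was nearly level between DACH1 states, 1.04-fold higher labelled serum (log2 -0.04, so lower, with quantile normalization) and 1.16-fold lower labelled serum-free (level with quantile normalization).

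FBN1, the fibrillin 1 gene, read 813.4 and 1347.1 labelled serum and 4339.9 and 4247.5 labelled serum-free on its brightest probe set. The rise between media was 4.10-fold (log2 2.04, SE 0.26, limma adjusted p 0.0216). In the arrays labelled serum all 3 of its probe sets were above 0 with DACH1 induced, by 1.65-fold to 1.96-fold, and none reached 2-fold. In those labelled serum-free its probe sets differed by at most 1.07-fold, so the DACH1 states lay further apart labelled serum.

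FN1 encodes fibronectin, the main ligand of integrin alpha 5 beta 1. Its brightest probe set read 2415.7 (silenced) and 1306.4 (induced) labelled serum against 7440.2 and 5901.4 labelled serum-free. The rise labelled serum-free was 3.73-fold (log2 1.90, SE 0.23, limma adjusted p 0.0203). The induced culture was the lower one in both media on all 7 probe sets. Labelled serum, the probe sets were 1.56-fold to 2.38-fold lower with DACH1, and 4 of the 7 passed 2-fold. The brightest, which stands for the gene in the counts below, was 1.85-fold lower and did not pass. Labelled serum-free they were 1.14-fold to 1.34-fold lower. One probe set rose more between media than the rest: 214701_s_at went from 223.6 and 93.8 to 1422.7 and 1246.0.

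LUM, the lumican gene, shared the order of FN1. It read 920.1 (silenced) and 439.1 (induced) labelled serum against 1897.4 and 1707.4 labelled serum-free. The rise between media was 2.83-fold (SE 0.29 on the log2 scale, limma adjusted p 0.0355). On its dimmer probe set, 229554_at, the readings were 34.4 and 16.3 against 51.6 and 52.9, and the medium term of that probe set did not pass (limma adjusted p 0.0564). With DACH1 induced, LUM was 2.10-fold and 2.11-fold lower on its 2 probe sets labelled serum. Labelled serum-free it was 1.11-fold lower on the brighter and 1.02-fold higher on the dimmer one. The distance between profiles over the 4 arrays, each centred on its mean log2 signal, was 0.44 for FN1 and LUM and 0.43 for THBS3 and LUM, the shortest among the genes.

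TNC, which encodes tenascin C, gave different answers on its 3 probe sets. The brightest, 201645_at, read 3341.8, 3471.0, 3455.6 and 3165.4 in the order silenced and induced labelled serum, silenced and induced labelled serum-free. These 4 values span 1.10-fold, and the medium term was -0.04 (SE 0.18, limma adjusted p 0.876). On 216005_at the readings were 895.0 and 741.8 labelled serum and 289.8 and 375.7 labelled serum-free. On 237169_at they were 351.3 and 184.6 against 63.0 and 45.5. With every probe set fitted one by one, both dimmer ones fell, by 1.30 (SE 0.25, limma adjusted p 0.0247) and 2.25 (SE 0.23, limma adjusted p 0.00945) on the log2 scale. Which transcripts or exons the 3 probe sets read was not analysed here, so no direction is given for TNC between the media.

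POSTN, the periostin gene, was at or near the floor throughout. Its 4 probe sets read between 0.2 and 12.3, and 3 of them were under the floor on every array. POSTN did not enter the fit, and no fold is given for it.

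**Figure D2:**
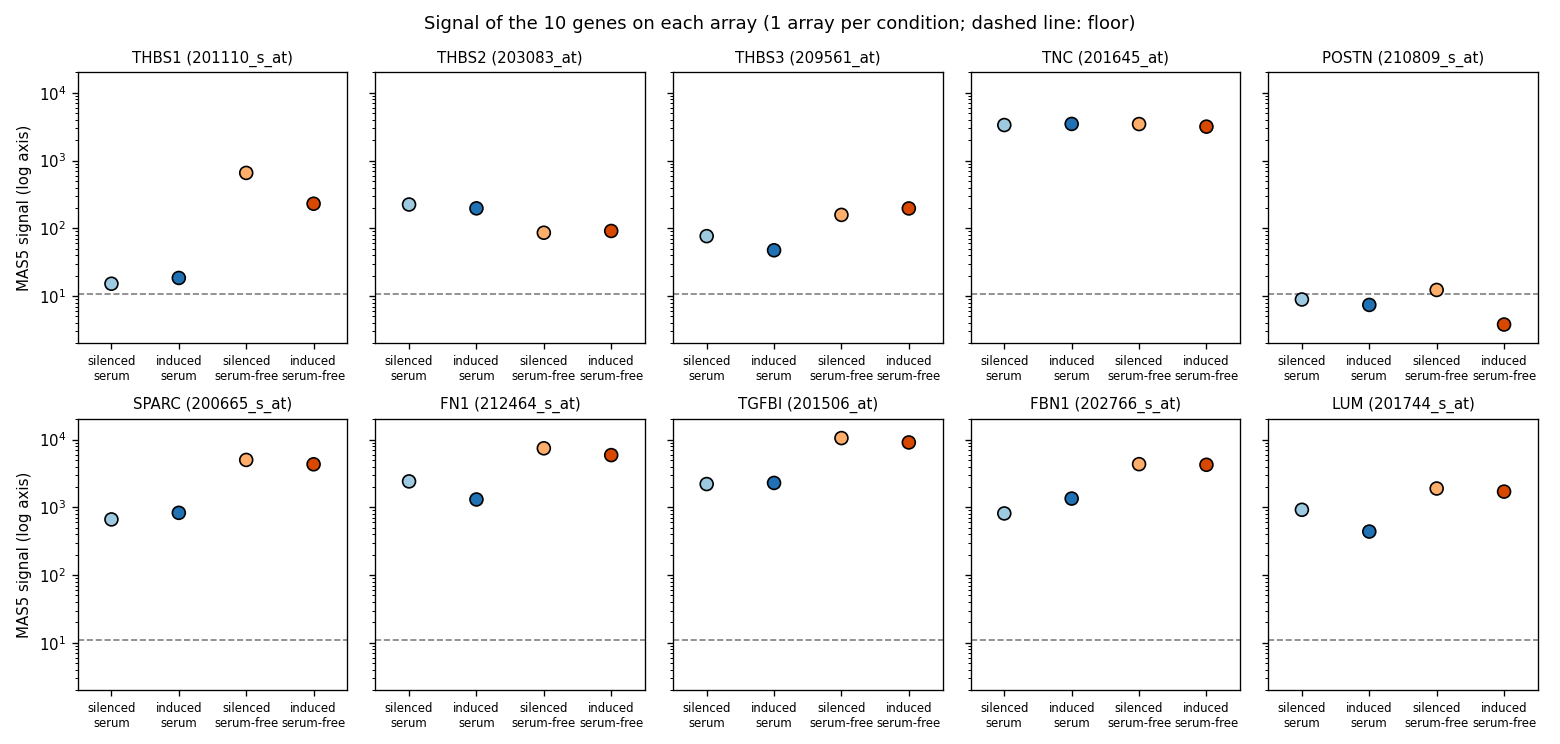
MAS5 signal (log axis) of each gene's brightest probe set on the 4 arrays, 1 point per array, with the dashed line at the floor of 10.9. Of the 10 genes, 7 are higher on both arrays labelled serum-free, THBS2 is lower, TNC is level at 3165.4 to 3471.0 and POSTN lies between 3.8 and 12.3.

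Counted together, 9 of the 10 genes entered the fit, which took genes with at least 2 arrays at the median signal. Of these 9, limma called 7 higher and 1 lower labelled serum-free at an adjusted p of 0.05 over 12103 genes, where 15.4% of all genes were called higher and 12.7% lower. The median of their medium terms was 1.90, against 0.02 over all genes fitted. The error of this fit is the interaction of DACH1 state and medium in single arrays, with 1 residual degree of freedom per gene. Limma then moves each gene's error toward a variance estimated over all genes fitted. A p-value here thus rests on 4 single arrays and on that shared variance, which changes with the filter, and on no replicate cultures. When low signals were not filtered out, limma called 0 of the 10 genes, with adjusted p from 0.133 to 0.316 for the 8 genes called above, and 5 of the 10 had an unadjusted p under 0.05, as had 22.9% of all genes.

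Without a test, the same 7 genes were at least 2-fold higher labelled serum-free in silenced cells, where 15.3% of all genes were, and in induced cells, where 14.0% were. In silenced cells LUM (log2 1.04) and THBS3 (1.04) were just past 2-fold. LUM was under it with quantile normalization (0.98), with the mean of all probe sets (0.82) and without _x_at and _s_at probe sets (0.59), and THBS3 with a pseudocount equal to the floor (0.95). THBS2 was at least 2-fold lower in both pairs, against 12.2% and 10.1% of all genes. Probe set by probe set, 24 of the 31 reached the median on at least 2 arrays. Of these 24, limma called 19 higher and 3 lower labelled serum-free, against 16.3% and 12.1% of 28654 probe sets. The THBS1 probe sets 201109_s_at and 201107_s_at are among the 19 and entered only through the 2 arrays labelled serum-free, where they were high, so the filter favoured that call. The remaining 2 were 201645_at of TNC and 229554_at of LUM.

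**Figure D3:**
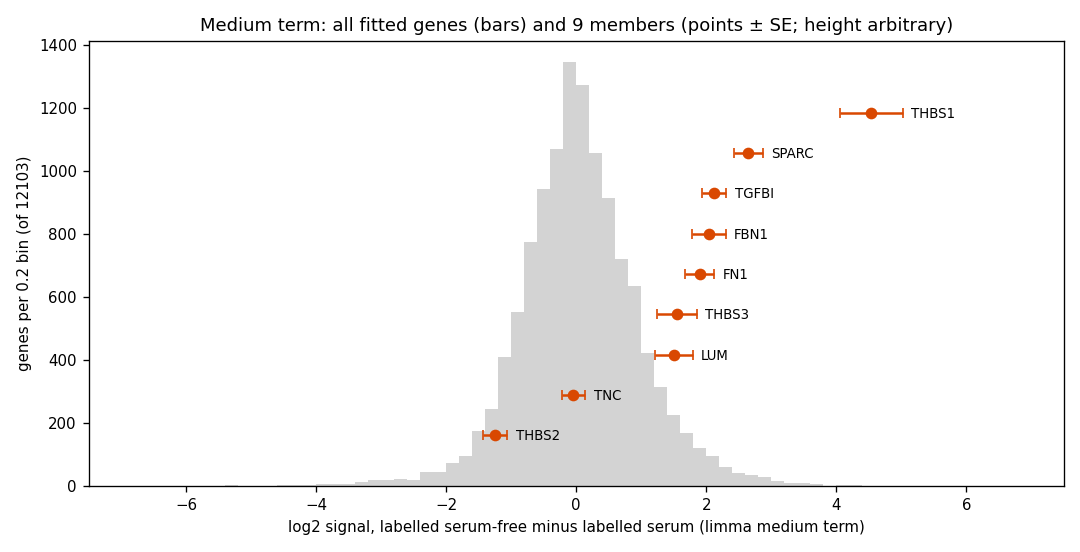
Limma medium term (log2 signal labelled serum-free minus labelled serum) of 12103 genes as grey bars, and of 9 matricellular genes as points with SE at arbitrary height. THBS1 lies furthest right at 4.54, 6 more genes lie above 1, up to 2.65, TNC is at -0.04 and THBS2 at -1.25.

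For the DACH1 state the differences were smaller and not shared among the genes. Labelled serum, LUM was the 1 of 9 genes at least 2-fold lower and 0 were higher, against 4.77% and 2.91% of all genes. In that pair 5 of the 9 lay above 0 and 4 below, or 3 and 6 with quantile normalization, which turned TNC and TGFBI. Labelled serum-free, 2 lay above 0 and 7 below, with THBS1 the 1 past 2-fold. These counts became 3 and 5 with quantile normalization, where TGFBI was level, and 3 and 6 without _x_at and _s_at probe sets. The median was 0.06 labelled serum and -0.15 labelled serum-free, against 0.01 and -0.00 over all genes. In the additive fit limma called 0 of the 9 for DACH1 state and 0.0% of 12103 genes, with 0 of the 9 at an unadjusted p under 0.05 against 4.83% of all genes. Fitted one by one, probe sets 201108_s_at (THBS1), 237169_at (TNC) and 214702_at (FN1) had an unadjusted limma p under 0.05. Their DACH1 terms were -1.16, -0.70 and -0.77, with limma adjusted p from 0.834 to 0.889. The share over all probe sets was not counted. DACH1 itself, with a term of 4.94 (SE 0.20), had an adjusted p of 0.234 in limma. FN1 had a DACH1 term of -0.61 (SE 0.23), LUM -0.61 (SE 0.29) and THBS1 -0.61 (SE 0.49), each with a limma adjusted p of 0.931. The terms of these 3 genes were of one size, but the larger of the paired differences was the one labelled serum for FN1 and LUM and the one labelled serum-free for THBS1. THBS1 and THBS3 were the 2 of 9 with a difference of differences past 1 in size, against 10.2% of all genes. The sign of the DACH1 difference was opposite in the media for 7 of the 9, against 46.7% of all genes, and several of these differences lay near 0.

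**Figure D4:**
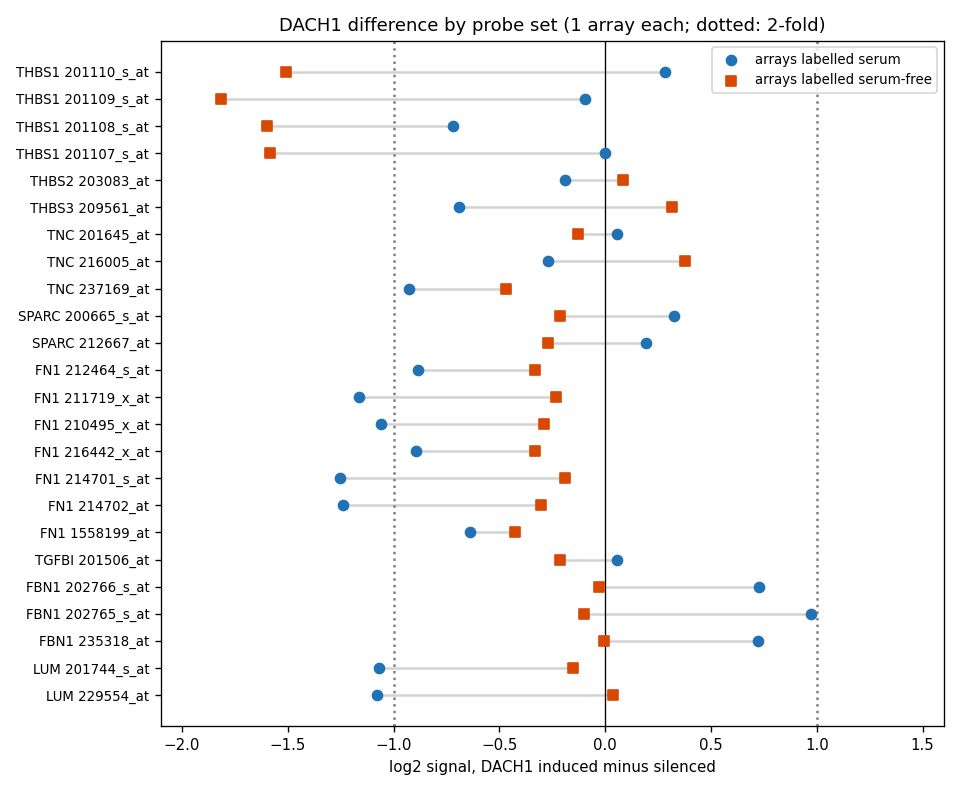
Log2 signal with DACH1 induced minus silenced for the 24 probe sets that reached the median signal on at least 2 arrays, in arrays labelled serum (circles) and labelled serum-free (squares), with dotted lines at 2-fold. The 4 THBS1 probe sets lie between -1.82 and -1.51 labelled serum-free, and all 7 FN1 probe sets lie below 0 in both media.

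Genes near these in function were read from lists. Of 20 other matricellular genes, 12 entered the fit, and limma called 5 higher (CCN5, SPP1, FSTL1, SPOCK1, ECM1) and 1 lower (SMOC1) labelled serum-free, with a median of 1.01 against 0.02 over all genes. The share over all genes fitted, for this and the lists below, was 15.4% higher and 12.7% lower. CCN5, a member of the CCN family, rose 2.95-fold (signals of 3.4 and 5.8 against 37.6 and 27.4, so the fold depends on the floor, and the gene entered only through the arrays where it was high), and SPOCK1, a testican gene, rose 2.90-fold. SMOC1, a relative of SPARC, fell 2.64-fold, from 223.3 and 210.8 to 83.6 and 80.7. SPP1, which encodes osteopontin, read 1607.2 and 1599.4 against 4062.3 and 3988.3, and CCN3 read 246.5 and 155.4 against 414.7 and 587.7 without passing (limma adjusted p 0.0582). SPP1, ECM1 and FSTL1 here, and CD47 and CD36 among the receptors, were named after their values were seen.

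Of 10 small leucine-rich proteoglycans listed, the family of lumican, 4 entered the fit, 2 above 0 and 2 below. Limma called 0 higher and 1 lower: decorin (DCN), which fell 11.1-fold (log2 -3.47, SE 0.42, limma adjusted p 0.0203). DCN read 1349.2 and 485.3 labelled serum and 72.5 and 73.7 labelled serum-free. The other 3 did not pass: FMOD read 39.4 and 38.8 against 30.6 and 21.6, PRELP 20.2 and 16.9 against 27.1 and 15.2, and PODN 18.4 and 15.7 against 20.8 and 14.7. In the list of microfibrils and elastic fibres, where fibrillin 1 works, 12 of 16 genes entered, 4 rose and 1 fell, against 15.4% and 12.7% of all genes, with a median of -0.11. MFAP4 rose 10.9-fold, MFAP5, which binds fibrillin, 6.28-fold and EFEMP2, a fibulin, 4.95-fold, while MFAP2 fell 3.09-fold. MFAP5 read 13.2 and 12.8 labelled serum, near the floor, and entered only through the arrays labelled serum-free (97.8 and 68.1), so the filter favoured its call.

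Receptors of these proteins included 16 genes in the fit of 19, and limma called 5 higher and 0 lower, against 15.4% and 12.7% of all genes, with a median of 0.74. SDC1, a syndecan, rose 5.80-fold and ITGA5, the alpha chain of the fibronectin receptor, 4.45-fold, from 514.6 and 794.7 to 3258.8 and 2485.8. ITGA3 rose 2.82-fold and SDC2 2.20-fold. The thrombospondin receptor gene CD47 read 1263.2 and 1276.6 against 1929.6 and 2165.6 and did not pass (limma adjusted p 0.0606), and CD36 read between 0.5 and 11.7. Of 11 genes named for TGF-beta ligands, receptors and feedback targets, 5 rose and 1 fell, against the same shares, with a median of 1.28. NREP rose 9.23-fold and TGFBR2, the type II receptor gene, 3.05-fold, SKIL, a repressor of SMADs, fell 3.96-fold, and LRRC32 did not pass (limma adjusted p 0.0732). For DACH1 state limma called 0 genes of any of these 5 lists, as it called 0 of all 12103 genes fitted.

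Genes whose profile over the 4 arrays came closest were named for the 3 genes with the widest range, among 5022 genes that spanned at least 1 log2 unit. For THBS1 these were CNN1, a calponin of smooth muscle (distance 0.73), the kinase gene ALPK2 (0.74) and TNFRSF9 (0.89). Labelled serum, ALPK2 read 12.4 and 13.9 and TNFRSF9 12.7 and 9.8, near or under the floor. Both entered only through the arrays labelled serum-free, where they were high, so these likenesses depend on the floor and the filter. CNN1 read 33.2 and 39.4 labelled serum and 874.0 and 606.7 labelled serum-free, so its induced culture was less reduced than that of THBS1. For SPARC the closest were the proliferation marker MKI67 (0.04), CDCA8 (0.07) and POFUT4 (0.08), and for FN1 FRMPD3, the myosin light chain kinase gene MYLK and FILIP1L, each at 0.14. FRMPD3 read 7.5 in induced cells labelled serum, under the floor. THBS1 had no gene as close as those of SPARC and FN1, but the distance is not scaled for range. THBS1 spanned 5.43 log2 units, with signals near the floor labelled serum, against 2.92 for SPARC and 2.51 for FN1. The distances rest on 4 arrays and are a description.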

How the data were processed

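Expression was measured on 4 arrays, 1 per condition. The deposited values are MAS5 signal intensities on a linear scale, per the submitters' processing notes, with the version and target intensity not given in the sources used here. Per the labels' protocols, labelled cRNA came from 6 µg of total RNA. Trimmed means (2% at each end) of the arrays lay between 99.63 and 99.65, as after 1 scaling factor per array. MAS5 corrects each probe with its mismatch partner, which makes logs of dim signals unstable. Detection calls were not used here.

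Of 54613 probe sets, 41091 had 1 gene in the platform annotation (updated through Entrez identifiers for 99.9%), 1801 several and 11721 were not listed. The probe set of highest mean log2 signal stood for a gene. Signals under 10.9 (40th percentile) were set to it. A pair took genes with 1 of its arrays at 17.2 or more, and the limma fit (lmFit, eBayes, Benjamini-Hochberg over all genes, threshold 0.05) genes with 2 of 4. "At least 2-fold" is a difference of 2 arrays with no test. The fit was run on simulated data drawn from its own variance model without interaction, which checks the code and not the calls. Every gene of interest was named, with up to 4 genes of each list by size of the medium term and 3 nearest profiles. The genes and lists were chosen with earlier results of these data known. Alternatives were other scaling, floors, filters, choices of probe set, a variance trend and each array left out. The signal range 200 to 1000 was also chosen with those results known. Fits ran in limma 3.58.1 under R 4.3.3. Tables and plots were made in Python 3.11.15 (matplotlib 3.10.9, numpy 2.4.6, pandas 2.3.3).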

Additional observations from a re-analysis of the deposited data

Results flagged for a closer look

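For 7 of the 9 genes in the fit, the log2 DACH1 difference had opposite signs in the media, as for 46.7% of all genes fitted, and these contrasts were not tested against each other, since each condition has 1 array. The change from the pair labelled serum to the pair labelled serum-free was -1.79 for THBS1 (from 0.28 to -1.51), where the other probe sets 201109_s_at and 201108_s_at were below 0 in both. It was 1.01 for THBS3 (from -0.69 to 0.32) and -0.76 for FBN1 (from 0.73 to -0.03). For SPARC it was -0.54 (from 0.32 to -0.21), and for THBS2 0.28 (from -0.19 to 0.09). TGFBI moved by -0.27 (from 0.06 to -0.21) and TNC by -0.18 (from 0.06 to -0.13). TNC also had opposite signs of its medium difference, 0.05 in silenced and -0.13 in induced cells, a change of -0.18. With quantile normalization the signs were no longer opposite for TNC labelled serum (-0.01), FBN1 labelled serum-free (0.05) and the medium difference of TNC in silenced cells (-0.21), and the change of TGFBI was 0.04.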

How the results depend on the processing

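The counts of genes kept within 1.5 times of the value given in 101 of 112 combinations of count and alternative, and no called or 2-fold value of a single gene changed sign under the alternatives run. With quantile normalization, with the mean of all probe sets, and without probe sets ending in _x_at or _s_at, the genes at least 2-fold lower with DACH1 labelled serum became 2, FN1 joining LUM. With the mean of all probe sets, TNC joined THBS2 as lower labelled serum-free, 2 genes in silenced cells, 2 in induced cells and 2 by limma. With no filter limma called 0 genes higher and 0 lower for the medium, of 19775 fitted, with 4531 at an unadjusted p under 0.05. The genes with a difference of differences past 1 became 1 with a pseudocount equal to the floor (THBS1), 1 with a floor of 50 (THBS1) and 1 with every array at the median (THBS3, as THBS1 was not fitted). With no floor, THBS3 (limma adjusted p 0.0580) and LUM (0.0550) missed the threshold for the medium, and LUM did so without _x_at and _s_at probe sets (0.0514), where THBS1 was not fitted. Leaving out 1 array leaves no test, and the medium term then ranged from 3.64 to 5.43 for THBS1, from 1.04 to 2.05 for THBS3 and from 1.04 to 1.96 for LUM. No paired analysis was possible because each condition has 1 array. The depth of an array is its signal over background, which limits THBS1 labelled serum and POSTN throughout.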

Other observations

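Labelled serum, several genes of the lists had unlike signals in silenced and induced cells. They are named here after their values were seen. At 2-fold, 2 of 13 other matricellular genes were higher with DACH1 and 1 lower, and of 4 small leucine-rich proteoglycans 0 and 1. Of 11 microfibril and elastic fibre genes 0 were higher and 2 lower. Receptors counted 1 and 1 of 16, and TGF-beta genes 1 and 2 of 11. Over all genes in this pair 2.91% were higher and 4.77% lower. EFEMP1 and LRRC32 (lower) and NREP (higher) also passed 2-fold. LRRC32 read 29.0 in silenced and 5.2 in induced cells labelled serum, the latter under the floor, so its fold depends on the floor. The largest difference was that of ITGB8, an integrin chain gene, at 554.3 in silenced and 24.9 in induced cells labelled serum (22.3-fold lower) and 232.2 and 157.8 labelled serum-free. LTBP1, which encodes a latent TGF-beta binding protein, read 1028 in silenced and 185.7 in induced cells labelled serum, and 283.5 and 253.0 labelled serum-free. CCN1 read 911.2 and 316.2 labelled serum, and 851.0 and 779.1 labelled serum-free. DCN read 1349.2 and 485.3 labelled serum, a lower signal with DACH1 as for LUM, although DCN and LUM went in opposite directions between the media. CCN4 read 21.1 and 102.1 labelled serum, and SPOCK1 185.2 and 444.9. None of these differences has a replicate array.

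ITGB5, another integrin chain gene, read 443.7 and 912.7 labelled serum and 1082.3 and 1107.8 labelled serum-free. TGFB2, which encodes a TGF-beta ligand, read 316.7 and 93.2 labelled serum and 545.2 and 393.7 labelled serum-free.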
